A study of Mus musculus with 39 samples.

Results

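The genes described here are named as translation initiation factors of the mouse. They are all protein-coding genes whose symbol starts with Eif1, Eif2, Eif3, Eif4, Eif5 or Eif6, without the 3 Eif4ebp genes, which encode binding proteins. The rule goes by name, so it also takes in genes of other function, such as the 4 kinases of eIF2 (Eif2ak1 to Eif2ak4) and Eif4enif1. Ensembl identifiers in the count files were matched to symbols, and 52 of the 45232 listed genes met this rule. Every one was a member by name alone, so no measured value chose them. Poly-A RNA was sequenced from libraries labelled quadriceps muscle or epididymal white adipose tissue (eWAT) of male C57BL/6J mice aged 22 weeks. In quadriceps there were 6 HFD fasted, 4 HFD fed, 6 CD fasted and 4 CD fed libraries, and in eWAT 5, 4, 6 and 4. HFD and CD name the diet of weeks 6 to 7 (45% or 10% of calories from fat), and fasted mice had no food for the last 16 h. All mice ate chow until week 10 and the 45% fat diet from then on, so the CD groups are also mice fed a high-fat diet as adults. Whether each library came from its own animal is not stated, so the p-values measure the spread between these libraries, which may be in part technical.

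Translation of most messenger RNAs starts when the eIF4F complex (the cap-binding protein eIF4E, the scaffold eIF4G and the helicase eIF4A) recruits a small ribosomal subunit that carries eIF3, eIF1, eIF1A, eIF5 and the eIF2 ternary complex with the initiator tRNA. The subunit scans to a start codon, eIF2 hydrolyses its GTP, and eIF2B must recharge eIF2 before it can act again. A family of 4 kinases phosphorylates the alpha subunit of eIF2, which holds back eIF2B, and in muscle both this step and the sequestering of eIF4E by 4E-BPs are known to respond to amino acid supply and insulin.

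Library depth ran from 6199586 to 14993394 counted reads. The quadriceps libraries carried fast muscle fibre transcripts at 175900 to 274700 CPM (counts put on 1 scale for all library sizes) summed over 8 markers, with at most 1.40 CPM of epididymal markers. The libraries labelled eWAT were mixed tissue: 13 of 19 had an epididymal marker sum of 18240 to 62180 CPM, against 6.89 to 45.5 CPM in the other 6. By group these 13 were 4 of 5 HFD fasted, 2 of 4 HFD fed, 3 of 6 CD fasted and 4 of 4 CD fed libraries. The adipocyte marker sum had a median of 3005 CPM in the 19 libraries and ranged from 1128 to 45310 CPM. Single eWAT libraries also held other cells. Hepatocyte markers reached 120500 CPM in HFD fasted replicate 4, spermatid markers 8888 CPM in HFD fasted replicate 1, and muscle fibre markers 1933 CPM in HFD fed replicate 3.

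The first question was whether these genes changed their transcript levels with a 16 h fast. In fasted quadriceps, 15 members were higher and 1 was lower than in fed quadriceps, among 49 tested members (edgeR quasi-likelihood test, adjusted p below 0.05, average over juvenile diets). That is 30.6% higher and 2.04% lower, where 19.2% of all 12213 tested genes were called higher and 18.4% lower. The direction was uneven: 37 members had a positive and 12 a negative estimate, and the median log2 change was 0.10, against -0.02 for all tested genes. Eif2ak4, Eif3a, Eif4a1 and Eif4g3 rose the most by p, and Eif4e fell. The remaining 3 of the 52, Eif3j2, Eif4e1b and Eif5a2, were too low in quadriceps to test, at under 0.2 CPM per kilobase of exon.

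**Figure D1:**
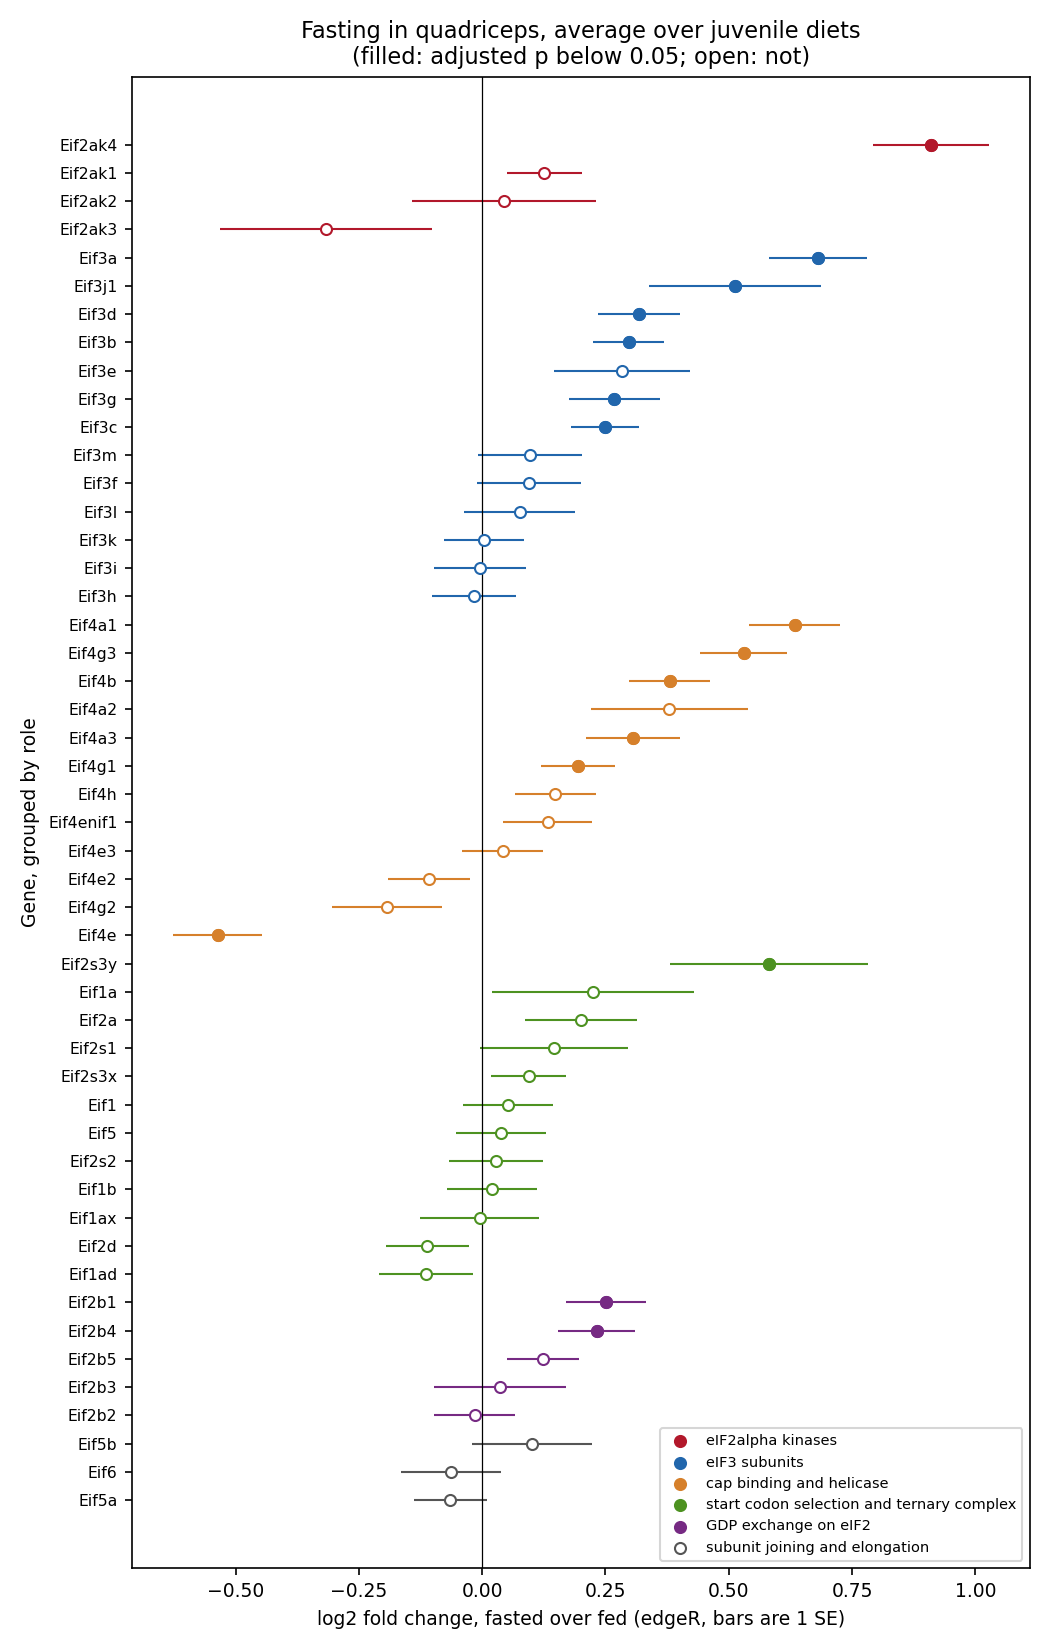
Log2 fold change, fasted over fed quadriceps, for the 49 tested genes grouped by role, with bars of 1 SE; filled points passed the adjusted p of 0.05. The risen genes lie in the eIF3 and cap-binding groups for the most part, and Eif4e at -0.54 is the single filled point left of 0.

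Among the kinases that phosphorylate eIF2alpha, Eif2ak4 (GCN2, the kinase that senses uncharged tRNA; ENSMUSG00000005102, GRCm38 2:118388618-118475234) rose, and the other 3 did not pass. After juvenile HFD it had a lowest, median and highest level of 7.58, 10.6 and 13.1 CPM in fasted libraries, against 4.27, 4.51, 4.91 and 7.06 CPM in fed libraries. After juvenile CD the levels were 9.72, 10.6 and 12.03 CPM in fasted libraries, against 5.84, 6.10, 6.22 and 6.44 CPM in fed libraries. All 12 fasted libraries lay above all 8 fed libraries, which no other member showed. Over all tested genes, 4.25% were so separated upwards and 2.6% downwards. The log2 change was 0.91 ± 0.12 (SE), a 1.88-fold rise (edgeR adjusted p = 4.29e-07, 12 fasted and 8 fed libraries). It was 1.01 ± 0.17 after juvenile HFD (edgeR adjusted p = 4.53e-05) and 0.81 ± 0.17 after juvenile CD (edgeR adjusted p = 0.000624).

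The other kinases had estimates between -0.32 and 0.13. Eif2ak1 (HRI, controlled by heme) averaged 43.4 ± 4.35 CPM in fasted and 39.8 ± 2.04 CPM in fed quadriceps (SD, n = 12 and 8; edgeR adjusted p = 0.202). Eif2ak2 (PKR, which binds double-stranded RNA) averaged 1.83 ± 0.36 and 1.75 ± 0.37 CPM in the same groups (edgeR adjusted p = 0.876). Eif2ak3 (PERK, the kinase of the endoplasmic reticulum stress response) averaged 3.20 ± 1.15 CPM in fasted and 3.86 ± 1.44 CPM in fed quadriceps (edgeR adjusted p = 0.257). At a few CPM in muscle, the last 2 kinases are measured with little depth.

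In eIF3, the scaffold that bridges the ribosomal subunit and eIF4G, 6 of 13 tested subunits rose and none fell. The largest rise was that of Eif3a, the largest subunit (ENSMUSG00000024991, 19:60761117-60790658). Eif3a had 81.1, 107 and 143 CPM (lowest, median and highest) in HFD fasted libraries, against 57.4, 65.9, 68.1 and 73.5 CPM in HFD fed libraries. In CD fasted libraries it had 90.2, 99.2 and 123 CPM, against 52.6, 62.9, 64.0 and 82.6 CPM in CD fed libraries. The diets taken apart, fasted and fed did not overlap; across diets the lowest HFD fasted library (81.1 CPM) fell below the highest CD fed one (82.6 CPM). The log2 change was 0.68 ± 0.10 (edgeR adjusted p = 2.98e-06).

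Eif3b, the subunit that pairs with eIF3a in the scaffold, rose less. It ranged from 77.0 to 104.2 CPM with a median of 88.9 CPM in the 12 fasted libraries, against 60.0 to 80.3 CPM with a median of 73.7 CPM in the 8 fed libraries. These ranges overlapped. Its log2 change was 0.30 ± 0.07 (edgeR adjusted p = 0.00179). Eif3d, a subunit that can bind the cap itself, changed by 0.32 ± 0.08 (edgeR adjusted p = 0.00343), and Eif3c by 0.25 ± 0.07 (edgeR adjusted p = 0.00538). Eif3g, an RNA-binding subunit, changed by 0.27 ± 0.09 (edgeR adjusted p = 0.0226) and Eif3j1, a loosely bound subunit, by 0.51 ± 0.17 (edgeR adjusted p = 0.0257). Eif3e did not pass, at 36.7 ± 7.49 CPM in fasted and 30.2 ± 7.28 CPM in fed quadriceps (edgeR adjusted p = 0.109). Eif3h, Eif3i, Eif3k, Eif3l, Eif3f and Eif3m had estimates between -0.02 and 0.10. The called subunits and those with estimates near 0 belong to the same complex, and whether the 2 sets differ from each other was not tested.

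**Figure D2:**
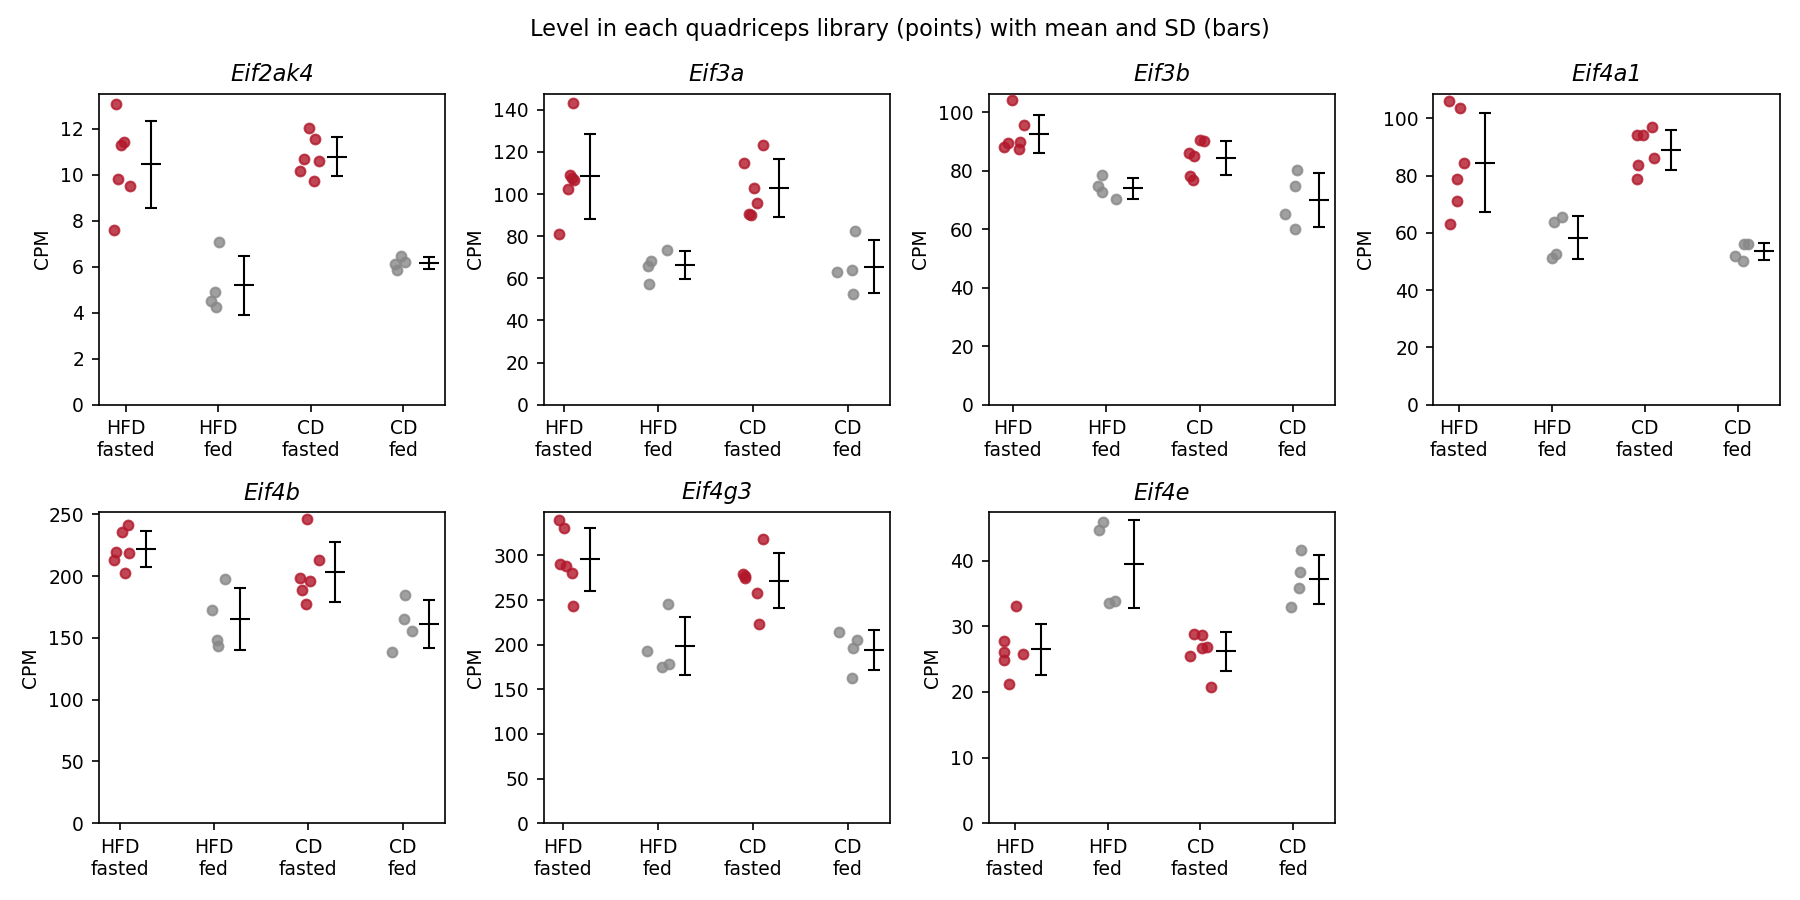
Level (CPM) of 7 genes in each of the 20 quadriceps libraries, with fasted in red and fed in grey, and the mean with its SD beside the points. In both juvenile diets, fasted libraries lie above fed ones for Eif2ak4 and below them for Eif4e.

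The cap-binding and helicase group moved in both directions, with 5 genes higher and 1 lower of 12 tested. Eif4e, which encodes the cap-binding protein (ENSMUSG00000028156, 3:138526179-138559696), was the gene that fell. It had 21.3, 25.99 and 33.1 CPM (lowest, median and highest) in HFD fasted libraries, against 33.5, 33.9, 44.6 and 45.9 CPM in HFD fed libraries. In CD fasted libraries it had 20.7, 26.8 and 28.9 CPM, against 32.9, 35.8, 38.2 and 41.6 CPM in CD fed libraries. Within each diet the groups did not overlap, and across diets the highest HFD fasted library (33.1 CPM) passed the lowest CD fed one (32.9 CPM). Its log2 change was -0.54 ± 0.09, to 0.69 of the fed level (edgeR adjusted p = 2.51e-05).

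Eif4a1, a cytoplasmic helicase gene (ENSMUSG00000059796, 11:69666936-69672423), rose. HFD fasted libraries had 63.3, 81.7 and 105.9 CPM, against 51.4, 52.6, 63.9 and 65.7 CPM in HFD fed libraries. CD fasted libraries had 79.0, 90.0 and 96.9 CPM, against 50.3, 51.9, 56.0 and 56.1 CPM in CD fed libraries. The groups overlapped after HFD and did not after CD. The log2 change was 0.63 ± 0.09 (edgeR adjusted p = 2.77e-06). Its relative Eif4a3, a component of the exon junction complex, changed by 0.30 ± 0.10 (edgeR adjusted p = 0.0125). Eif4a2, the other cytoplasmic helicase gene, had 136 ± 34.5 CPM in fasted and 105 ± 31.7 CPM in fed quadriceps and did not pass (edgeR adjusted p = 0.065).

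Of the scaffolds, Eif4g3 (ENSMUSG00000028760, 4:137993022-138208508) changed most. It ranged from 223 to 339.8 CPM with a median of 279.6 CPM in fasted libraries, against 162.6 to 245.4 CPM with a median of 194.4 CPM in fed libraries. These ranges overlapped, and the log2 change was 0.53 ± 0.09 (edgeR adjusted p = 2.14e-05). Eif4b, which stimulates the helicase, ranged from 177 to 246.5 CPM with a median of 213 CPM in fasted libraries, against 138 to 197.9 CPM with a median of 160.6 CPM in fed libraries. The log2 change of Eif4b was 0.38 ± 0.08 (edgeR adjusted p = 0.000549). Eif4g1, the most abundant scaffold transcript, changed by 0.19 ± 0.08 (edgeR adjusted p = 0.0434), a call lost in 11 of 20 fits that left out 1 library. Eif4g2, which lacks the eIF4E-binding part, had an estimate of -0.19 ± 0.11 (edgeR adjusted p = 0.183). Eif4e2 and Eif4e3, relatives of Eif4e, had estimates of -0.11 and 0.04 (edgeR adjusted p = 0.328 and 0.725). Eif4h, a helicase cofactor, and Eif4enif1, which carries eIF4E into the nucleus, had estimates of 0.15 and 0.13 (edgeR adjusted p = 0.159 and 0.257).

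The windows before the transcript starts of the members were read for 6 short motifs, as a description. RefSeq gives such a promoter window for 42 of the 52 genes (GRCm38.p6; 250 bases before the start, both strands). The E-box CACGTG, to which factors such as Myc and USF bind, was in the window of 9 of these 42 genes (21.4%), against 6.86% of 27025 genes with a window. Members averaged 1.31 windows a gene and all genes 1.22. TGACGTCA, the cAMP response element, was in 0 of 42, against 1.77% of all genes. The forkhead motif GTAAACA was in 1 (3.54% of all genes), the C/EBP-ATF motif TGATGNAA in 1 (3.91%), the NRF1 motif in 1 (0.877%) and the ETS motif CCGGAAGT in 5 (3.23%). Both Eif4a1, which rose in fasted muscle, and Eif4e, which fell, hold the E-box, so a match did not go with 1 direction. Of the 15 genes that rose, all had a window and 2 held the E-box. The windows of Eif4a1 and Eif4e are given with the motif in capitals, followed by Eif2ak4, which held none of the 6 motifs.
Eif4a1, chr11:69672424-69672673, minus strand: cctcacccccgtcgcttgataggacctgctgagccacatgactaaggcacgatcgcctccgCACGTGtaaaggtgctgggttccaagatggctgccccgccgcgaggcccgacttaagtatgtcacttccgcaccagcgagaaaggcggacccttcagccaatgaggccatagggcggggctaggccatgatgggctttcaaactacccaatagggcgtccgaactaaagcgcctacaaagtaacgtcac
Eif4e, chr3:138527018-138527267, plus strand: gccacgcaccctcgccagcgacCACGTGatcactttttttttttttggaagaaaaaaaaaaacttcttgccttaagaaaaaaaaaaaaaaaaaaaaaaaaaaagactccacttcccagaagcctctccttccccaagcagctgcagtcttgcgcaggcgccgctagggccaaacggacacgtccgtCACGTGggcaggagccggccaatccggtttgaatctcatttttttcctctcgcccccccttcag
Eif2ak4, chr2:118388367-118388616, plus strand: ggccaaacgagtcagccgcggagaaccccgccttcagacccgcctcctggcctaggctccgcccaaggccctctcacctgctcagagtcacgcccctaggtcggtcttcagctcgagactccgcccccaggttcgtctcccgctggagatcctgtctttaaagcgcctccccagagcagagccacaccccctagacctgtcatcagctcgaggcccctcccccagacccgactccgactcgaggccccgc
Each line reads 5′ to 3′ in the direction of transcription. In Eif4a1 the E-box begins 189 bases before the start, and in Eif4e, shown for the more downstream of its RefSeq starts, 228 and 64 bases before it.

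The remaining groups held few calls. In eIF2B, the exchange factor, Eif2b1 and Eif2b4 changed by 0.25 ± 0.08 and 0.23 ± 0.08 (edgeR adjusted p = 0.0153 and 0.0197), and Eif2b2, Eif2b3 and Eif2b5 lay between -0.02 and 0.12 and did not pass. Among the 12 genes of start codon selection and the ternary complex, Eif2s3y, the Y-linked gene for the gamma subunit of eIF2, passed alone, at 0.58 ± 0.20 (edgeR adjusted p = 0.0263). The other 11 ranged from -0.11 (Eif1ad and Eif2d) to 0.22 (Eif1a). Eif2s1, the target of the eIF2alpha kinases, had an estimate of 0.15 ± 0.15 (edgeR adjusted p = 0.476). Eif5a (translation elongation), Eif5b (joining of the large subunit) and Eif6 (which keeps subunits apart) lay between -0.06 and 0.10 and did not pass.

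Some of these calls rested on few libraries. Those of Eif2s3y and Eif3j1 were lost without CD fed replicate 2 and without HFD fed replicate 2, that of Eif3g without CD fed replicate 4 and without HFD fed replicate 2, and that of Eif2b4 without HFD fed replicate 2. Eif2ak4, Eif3a, Eif4a1, Eif4g3 and Eif4e kept their calls in all 20 fits that left out 1 library and in the 7 other settings tried. The adipocyte marker sum ranged from 147 to 1063 CPM in the 12 fasted and from 123 to 304 CPM in the 8 fed quadriceps libraries. Adipoq lay between 0.21 and 50.7 CPM over the 20. The ranges of the marker sum overlapped, and it was not tested for fasting. With that sum as a covariate, 8 members were higher and 1 lower, or 16.3% and 2.04%, where 16.2% and 13.1% of all tested genes were called, so the share of higher members was then near that of all genes. The part of those cells in the result was not tested. Whether counting used strand is not given in the sources used here. In annotation the span of Eif2b4 overlaps that of Snx17 on the opposite strand. So do Eif3j1 with Spg11, Eif3d with Gm17638 and Eif4g3 with 1700095J12Rik. Only whole gene spans were compared, and the part of reads from shared stretches in these levels was not tested. In bulk tissue, fewer cells of a type and less RNA per cell cannot be told apart.

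Each juvenile diet was also tested alone. After juvenile HFD, 7 members were higher and 1 lower in fasted quadriceps, or 14.3% and 2.04% of 49, where 11.7% and 9.7% of all tested genes were called. After juvenile CD, 8 were higher and 1 lower, or 16.3% and 2.04%, where 12% and 10.4% of all tested genes were called. Eif2ak4, Eif3a, Eif4a1, Eif4b and Eif4g3 were called higher in both, and Eif4e lower in both. The calls in 1 diet alone were Eif3b and Eif3d after HFD, and Eif3c, Eif3g and Eif4a3 after CD. No member passed the test of a different response to fasting between the diets. None of the 49 was called in the interaction (edgeR smallest adjusted p = 1), and 0 had an unadjusted p below 0.05. Over all tested genes edgeR called 0% in either direction. DESeq2 and limma voom called 0 members each. Over all tested genes DESeq2 called 0.0164% higher and 0% lower, and limma voom 0%. Averaged over feeding states, juvenile diet called 0 of 49 members in either direction, where 0.00819% of all tested genes were called higher and 0.0164% lower. DESeq2 and limma voom also called 0 members. Over all tested genes DESeq2 called 0.0409% higher and 0.115% lower, and limma voom 0.00819% in each direction. By edgeR 5 members had an unadjusted p below 0.05, all with a higher estimate after HFD: Eif3l, Eif2b4, Eif2s2, Eif3d and Eif3f. The smallest adjusted p was that of Eif3l (0.478), at 29.3 ± 6.17 CPM after juvenile HFD and 24.1 ± 3.45 CPM after juvenile CD (n = 10 each).

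Ratios between paralogous factors within a library hardly depend on the scaling of libraries, so 11 such pairs were compared. With the juvenile diets as strata, 9 pairs in quadriceps and 10 in eWAT had enough reads, and p-values are adjusted over these 19 tests. In quadriceps, 3 ratios passed and all 3 were higher in the fasted state. The log2 ratio of Eif4e3 to Eif4e, 2 genes whose products bind the cap, ranged from -0.42 to 0.27 in fasted libraries, against -1.04 to -0.52 in fed libraries. These ranges did not overlap. The difference was 0.57 (two-sided exact permutation test, p = 2.27e-05, the smallest that 44100 relabellings can give; adjusted p = 0.000216). The log2 ratio of Eif4g3 to Eif4g1, both scaffolds, ranged from -1.53 to -1.19 in fasted libraries, against -1.80 to -1.57 in fed libraries, again without overlap. It differed by 0.34 (exact permutation p = 2.27e-05, adjusted p = 0.000216). Eif4e2 to Eif4e ranged from -0.20 to 0.67 in fasted libraries, against -0.70 to 0.21 in fed libraries. These ranges overlapped, and the difference was 0.43 (exact permutation p = 0.000862, adjusted p = 0.00546). Eif4a2 to Eif4a1 and Eif4a3 to Eif4a1 differed by -0.22 and -0.33 and did not pass (exact permutation adjusted p = 0.17 and 0.0817). The largest downward difference was that of Eif4g2 to Eif4g1, at -0.39, which did not pass either (exact permutation p = 0.0159, adjusted p = 0.0604) but did in 3 of 20 tests that left out 1 library. Eif4e is the shared denominator in 2 of the 3 ratios that passed, so they are not independent.

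**Figure D3:**
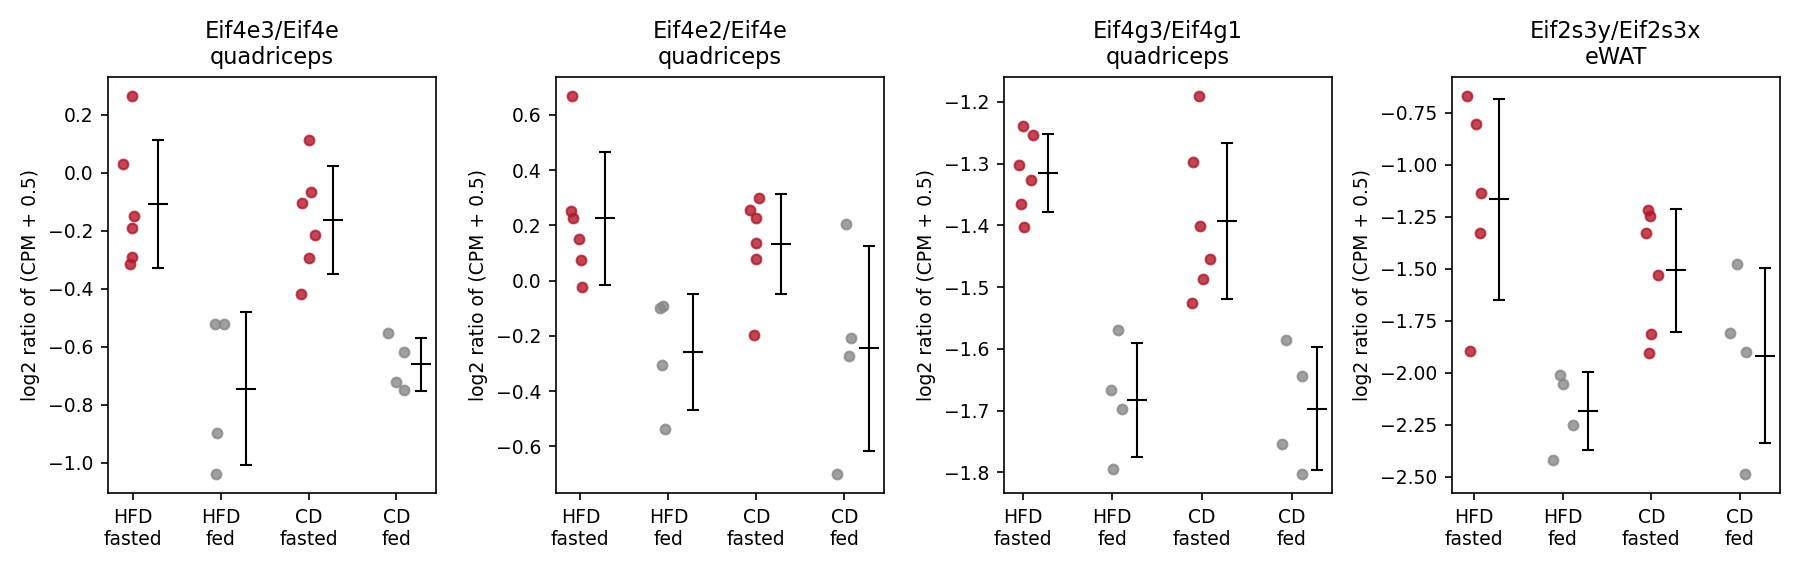
Log2 ratio of CPM + 0.5 for 4 gene pairs in each library, fasted in red and fed in grey, with the mean and SD beside the points. Fasted quadriceps libraries lie above fed ones for the first and the third pair, with no overlap.

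In libraries labelled eWAT, 1 pair passed. The log2 ratio of Eif2s3y to Eif2s3x, the Y- and X-linked copies of the eIF2 gamma gene, ranged from -1.91 to -0.67 in 11 fasted libraries, against -2.49 to -1.48 in 8 fed libraries. The ranges overlapped, and the difference was 0.71 (exact permutation p = 0.00219, adjusted p = 0.0104). In the 13 epididymis-rich libraries the mean was -1.42 ± 0.40 in 7 fasted and -1.996 ± 0.35 in 6 fed libraries (SD). In the other 6 libraries the means were -1.24 ± 0.47 in 4 fasted and -2.22 ± 0.29 in 2 fed libraries. The ratio of Eif4e3 to Eif4e varied more widely among these libraries. It ranged from 0.89 to 2.15 in the 5 libraries with over 30000 CPM of adipocyte transcripts, against -4.46 to -1.07 in the other 14, and these ranges did not overlap. The 5 were all among the 6 libraries with few epididymal transcripts. The sixth of these, HFD fasted replicate 4, had a ratio of -1.60 and carried 120500 CPM of hepatocyte and 1622 CPM of adipocyte transcripts. The part of these cells in the ratio was not tested.

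The libraries labelled eWAT were tested for fasting in the same way. In eWAT no member was called for fasting, of 50 tested (edgeR smallest adjusted p = 0.548), where 0% of 16603 genes were called in either direction. DESeq2 and limma voom also called 0 members. Over all genes DESeq2 called 0.367% higher and 0.193% lower, and limma voom 0% in either direction. In edgeR 7 members had an unadjusted p below 0.05. The smallest was that of Eif5b, at 0.79 ± 0.24. The biological coefficient of variation was 0.203 in muscle and 0.779 in these libraries. These are common values over all tested genes and do not give the spread of each member. In fasted eWAT libraries Eif3a had 128.8 ± 17.1 CPM and Eif4e 42.8 ± 29.8 CPM (SD, n = 11). What size of change could be detected for each member was not tested. No member separated all fasted from all fed libraries, where 0.00602% of all tested genes did so upwards and 0.012% downwards. For juvenile diet in eWAT, edgeR called 0 of 50 members (smallest adjusted p = 1), where 0% of genes were called. In that test 1 member had an unadjusted p below 0.05. DESeq2 and limma voom called 0 members, where DESeq2 called 0% of genes higher and 0.00602% lower, and limma voom 0%.

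A fit of all 39 libraries, taken as independent since the labels do not tie the tissues to mice, tested whether the fasting response differed between the tissues. In quadriceps minus eWAT, 3 of 50 members (6%) were higher and 0 lower, where 1.79% of 17083 genes were called higher and 0.942% lower. The median difference was 0.01 for the members and -0.12 for all genes in this fit. The difference was 0.78 ± 0.16 for Eif3a (edgeR adjusted p = 0.00301), 0.96 ± 0.22 for Eif2ak4 (edgeR adjusted p = 0.00963) and 0.66 ± 0.18 for Eif4a1 (edgeR adjusted p = 0.0433). The call for Eif4a1 was lost in 24 of 39 fits that left out 1 library, and with no filter on low counts. With the 13 epididymis-rich eWAT libraries alone the call counts of members were the same. In that fit 3.35% of 18438 genes were called higher and 1.49% lower. In eWAT Eif2ak4 had lowest, median and highest levels of 15.4, 31.2 and 38.2 CPM in fasted libraries, against 19.7, 30.8 and 37.4 CPM in fed libraries. Eif3a had 99.2, 132 and 150.2 CPM in fasted libraries, against 122, 137 and 170.5 CPM in fed libraries. Eif4a1 had 186, 314 and 409 CPM in fasted libraries, against 242, 310.3 and 481 CPM in fed libraries. All 3 overlapped between the feeding states. Eif4e did not pass, at -0.69 ± 0.24 for quadriceps minus eWAT (edgeR adjusted p = 0.126).

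**Figure D4:**
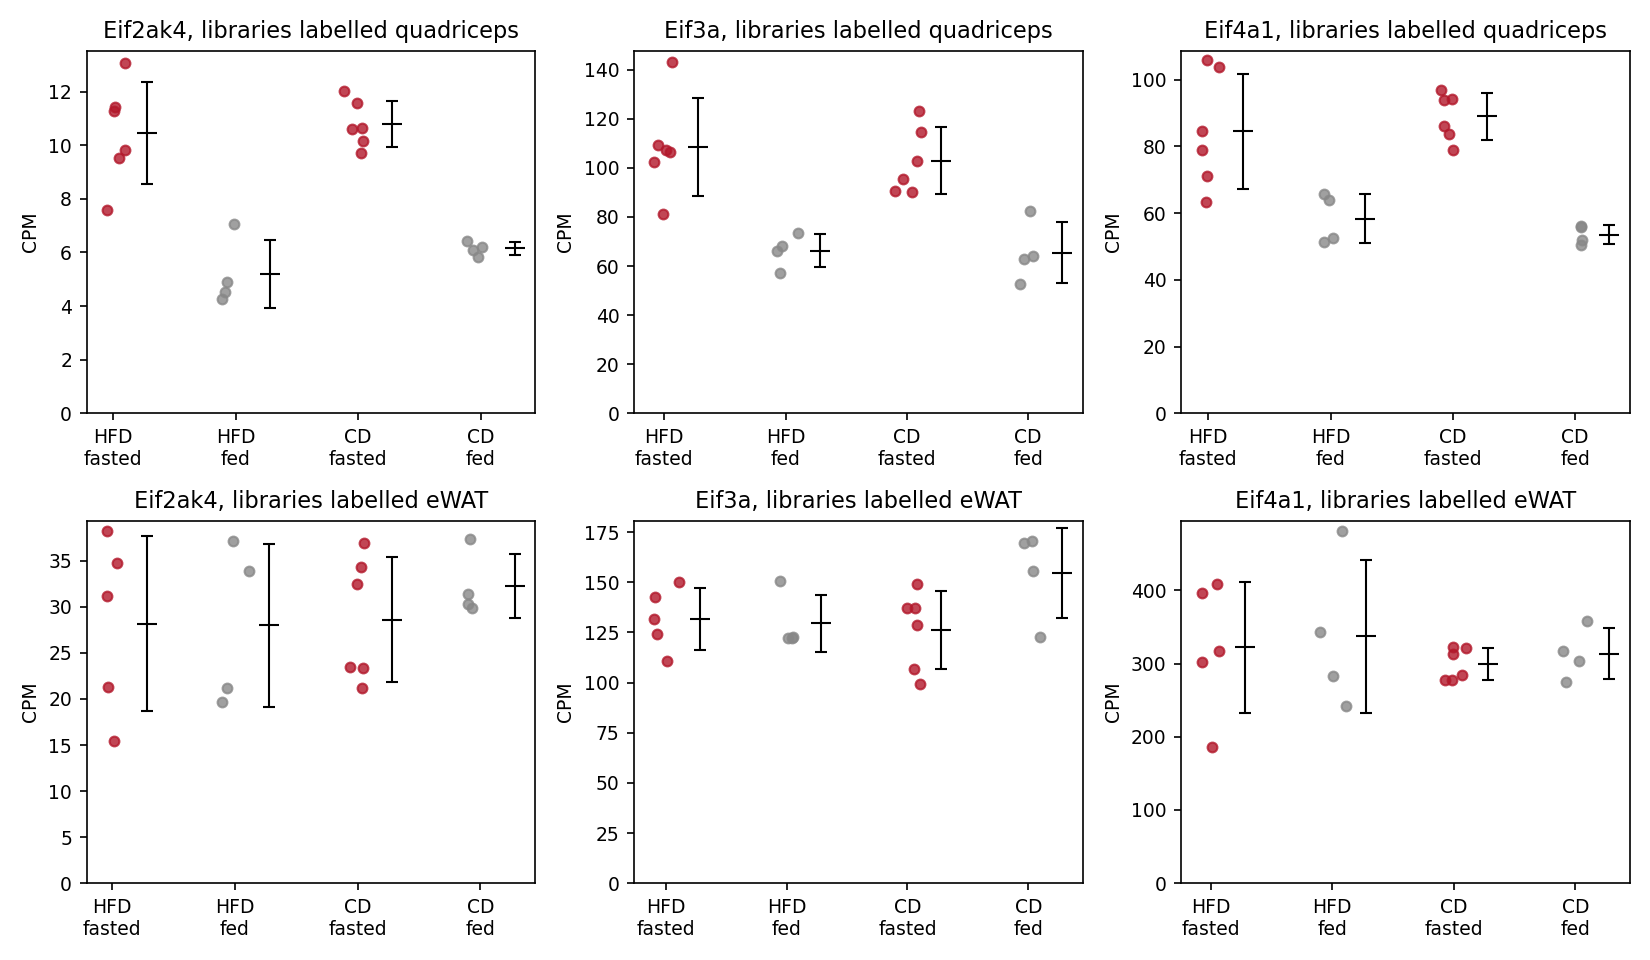
Level (CPM) of Eif2ak4, Eif3a and Eif4a1 in each library, quadriceps above and eWAT below, fasted in red and fed in grey, with mean and SD beside the points. The fasted means lie higher in quadriceps for all 3, and the states overlap in eWAT.

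Levels between genes were compared per length, as CPM per kilobase of merged exons, with libraries scaled within each tissue as for the CPM above. In quadriceps the family spanned from Eif1, the start codon selection factor, at 189.9 ± 25.4 CPM per kilobase, down to Eif2ak2 at 0.35 ± 0.07 among the 49 tested. Eif5a at 103.3 ± 8.98 and Eif4g1 at 93.96 ± 9.58 followed Eif1, and these 2 neighbours overlapped. Next came Eif3h at 57.0 ± 6.47 and Eif4b at 43.2 ± 7.22 CPM per kilobase, which also overlapped. The cap-binding gene Eif4e stood at 5.18 ± 1.20 CPM per kilobase, far below Eif4g1, and the eIF2alpha kinases ran from 0.35 (Eif2ak2) to 7.41 (Eif2ak1).

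**Figure D5:**
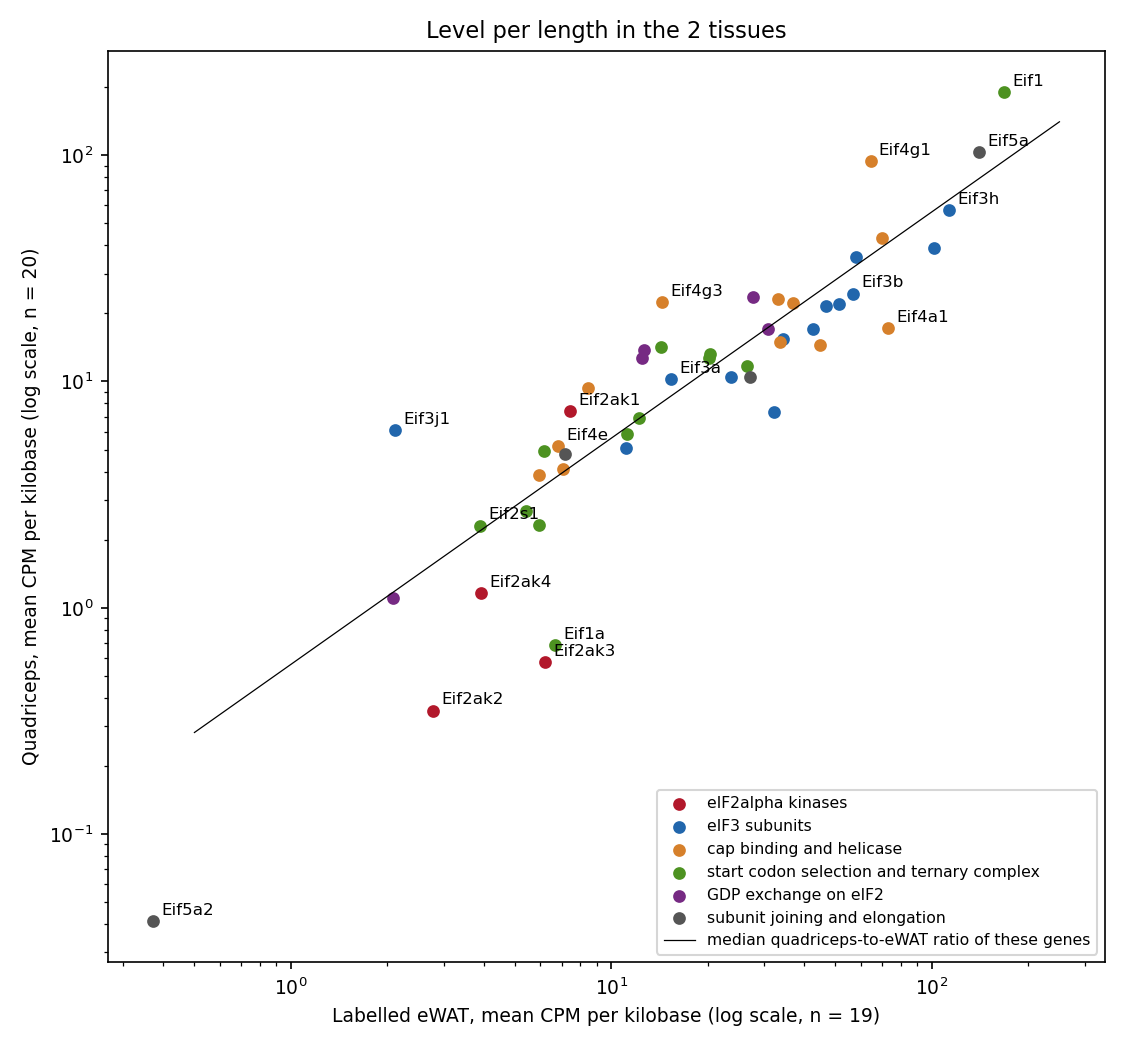
Mean level of 50 genes as CPM per kilobase, scaled within each tissue, quadriceps on the vertical and labelled eWAT on the horizontal log axis, coloured by role. The line marks the genes' median ratio of quadriceps to eWAT (0.56). Eif3j1, Eif4g3 and Eif4g1 lie far above it, and Eif2ak3, Eif1a, Eif5a2 and Eif2ak2 far below.

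Levels between the tissues hinge on how libraries of such different makeup are scaled. The median ratio of quadriceps to eWAT over the 50 members was 0.56 with scaling within each tissue and 0.56 with plain library sizes, but 1.34 with TMM and 1.33 with RLE over all 39 libraries. With scaling within each tissue, the libraries of 0 members lay wholly higher and those of 15 (30%) wholly lower in quadriceps, where 3.78% and 25.8% of 17083 genes did. With TMM over all libraries these were 8 (16%) and 2 (4%), where 9.78% and 5.78% of the genes did. They were 5 (10%) and 3 (6%) with RLE, where 9.34% and 6.36% of the genes did, and 1 (2%) and 11 (22%) with plain sizes, where 3.85% and 19.6% did. These 3 other scalings were tried after seeing the data. Eif1a, which helps to recruit the initiator tRNA, and Eif2ak2, the kinase that senses double-stranded RNA, lay wholly lower in quadriceps under all 4 scalings, and no member lay wholly higher under all 4. Eif1a had 0.68 ± 0.22 CPM per kilobase in quadriceps and 6.66 ± 1.23 in eWAT, and Eif2ak2 had 0.35 ± 0.07 in quadriceps and 2.78 ± 0.44 in eWAT (SD, scaled within tissue). Set against the median ratio of the members, the ratio of quadriceps to eWAT was 5.14 times as high for Eif3j1, 2.78 times for Eif4g3 and 2.60 times for Eif4g1. It was 0.22 of that median for Eif2ak2, 0.20 for Eif5a2, 0.18 for Eif1a and 0.16 for Eif2ak3. Eif5a2 was too low in quadriceps to test there. No test was made, since the libraries labelled eWAT are mixed tissue and their part in the levels was not tested.

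Genes that control the use of these factors were read beside them, from a list of 42 genes outside the family (41 tested in quadriceps). In fasted quadriceps 13 of them rose and 4 fell, where 19.2% and 18.4% of all genes did, with a median log2 change of 0.10. Eif4ebp1, the 4E-BP that sequesters eIF4E, averaged 141 ± 21.0 CPM in fasted and 35.0 ± 4.43 CPM in fed quadriceps (SD; edgeR log2 change 2.01 ± 0.10, adjusted p = 4.48e-15), while Eif4ebp2 had an estimate of 0.08 (edgeR adjusted p = 0.628). Of 11 genes of mTORC1, the kinase complex that frees eIF4E from 4E-BPs, and of its inputs, 5 rose, 2 fell and 4 did not pass. Of the complex itself, Mtor, the kinase, rose by 0.34 ± 0.09, while Rptor and Mlst8, its partners, fell by 0.27 and 0.49 on the log2 scale (edgeR adjusted p = 0.00529, 0.017 and 9.5e-05). Of its inhibitors, Ddit4 rose by 3.65 ± 0.35, Sesn1 by 2.07 ± 0.12, Sesn2 by 1.06 ± 0.20 and Tsc1 by 0.55 ± 0.08 (edgeR adjusted p = 3.09e-07, 2.41e-13, 8.42e-05 and 3.91e-06). The inhibitors Sesn3, Tsc2 and Akt1s1 had estimates of 0.32, 0.07 and -0.08, and the activator Rheb 0.21, and these 4 did not pass (edgeR adjusted p = 0.38, 0.642, 0.489 and 0.346). Ppp1r15a and Ppp1r15b, which return eIF2alpha to its unphosphorylated form, rose by 1.98 ± 0.13 and 0.80 ± 0.11 (edgeR adjusted p = 9.95e-13 and 1.09e-06). Atf4, whose mRNA is translated when eIF2alpha is phosphorylated, rose by 0.44 ± 0.10 (edgeR adjusted p = 0.00076). These are transcript levels and say nothing on how far any protein was phosphorylated. Of the elongation factors on the list, Eef2 rose by 0.25 and Eef1g fell by 0.27 (edgeR adjusted p = 0.0221 and 0.00403). Among the 5 kinase genes Rps6kb1, Rps6kb2, Mknk1, Mknk2 and Eef2k, 1 was higher and 1 lower. Partners of eIF4A and of the poly-A-binding protein had 1 of 6 higher, and scanning and recycling genes 1 of 6. Neither of these 2 groups had a lower call, and the 2 termination factors did not pass. After juvenile HFD alone 11 of the 41 were higher and 3 lower, where 11.7% and 9.7% of all tested genes were called, and after juvenile CD 10 and 1, where 12% and 10.4% were. None was called for juvenile diet or for its interaction with fasting in quadriceps, nor for fasting or juvenile diet in eWAT.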

How the data were processed

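The deposited files hold integer read counts per Ensembl gene, made by the authors; the submitters' processing notes name HTSeq 0.6.0, TopHat2 2.1.0 and Bowtie2 2.2.5 and build GRCm38. Their annotation release and strand setting: not given in the sources used here. The 5 summary lines of each file were left out. Symbols, positions and exon lengths came from GENCODE M21. Counts were filtered with filterByExpr and TMM-scaled, and tested in R 4.3.3 with the edgeR 4.0.16 quasi-likelihood test (robust, 1 mean per group, two-sided), within each tissue and in 1 fit of all 39 libraries, with Benjamini-Hochberg adjustment over all tested genes at 0.05. CPM use TMM-scaled library sizes, and marker sums plain ones. Paralog ratios used log2 of CPM + 0.5 where both genes averaged at least 10 reads. Alternatives used limma 3.58.1 and DESeq2 1.42.0, and the fits were tested on simulated data. Reads carry no molecular identifiers.

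Per-library values are given for up to 6 members per direction with the smallest p past the threshold for fasting in quadriceps, for members past it in another contrast, and for ratios that pass. The members, lists and tests were chosen with earlier results of these data known.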

Additional observations from a re-analysis of the deposited data

Results flagged for a closer look

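In 10 of 128 sets of 1 called gene in 1 group, 1 library lay far from the others (7.81%, where chance gives about 1 in 20). In quadriceps HFD fasted replicate 6, Eif2s3y was at 23.3 CPM (the others at 8.69 to 13.8 CPM) and Eif3j1 at 79.0 CPM (28.9 to 47.5 CPM). In quadriceps CD fasted replicate 5, Eif3c was at 140.1 CPM (127 to 130.9 CPM), and in quadriceps CD fed replicate 1, Eif3g was at 44.7 CPM (33.1 to 34.0 CPM). In eWAT HFD fasted replicate 1, which carried 8888 CPM of spermatid transcripts, Eif3b was at 381 CPM (174 to 190.9 CPM), Eif4e at 127.9 CPM (37.1 to 47.4 CPM) and Eif4g3 at 427 CPM (132 to 187 CPM). The part of those cells in these levels was not tested. In the other eWAT libraries, Eif3a was at 150.8 CPM in HFD fed replicate 4 (122 to 122.7 CPM), Eif2b1 at 43.2 CPM in HFD fed replicate 2 (25.3 to 27.6 CPM) and Eif4g3 at 210.3 CPM in CD fed replicate 1 (136.8 to 146 CPM).

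The fasting response differed between the tissues, quadriceps minus eWAT, by 0.96 for Eif2ak4, 0.78 for Eif3a and 0.66 for Eif4a1 on the log2 scale (edgeR, fit of all 39 libraries). These were 6% of 50 members, where 1.79% of 17083 genes were called higher. The Eif4a1 call was lost in 24 of 39 fits that left out 1 library. The libraries labelled eWAT were mixed tissue, and the part of their makeup in these differences was not tested.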

How the results depend on the processing

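In the fasting response of quadriceps, the 15 higher calls numbered 8 with adipocyte markers as a covariate (16.3% of members, 16.2% of all genes). They numbered 4 in 1 fit of all 39 libraries (8% of members, 4.94% of all genes), which shares the wide spread of eWAT. The 1 lower call became 2 with limma voom (4.08% of members, 19.5% of all genes). It also became 2 with an offset for GC content and length (4.08% of members, 18.6% of all genes), an alternative chosen after seeing the data. Eif4g2 was the second. The lower calls ranged from 1 to 2 when 1 library was left out (2 without HFD fasted replicate 6). After juvenile CD, the 8 higher calls numbered 5 with no filter (9.62% of members, 4.99% of all genes) and 2 in the fit of all 39 (4% and 1.54%). They numbered 4 with the covariate (8.16% and 8.88%) and 4 to 10 when 1 library was left out (4 without CD fed replicate 2 or 3). The lower calls were 0 in the fit of all 39, where 1.03% of all genes were called, and 0 with the covariate, where 6.03% were. With the offset they were 2 (4.08% of members, 11% of all genes). After juvenile HFD, the higher calls were 2 in the fit of all 39 (4% of members, 1.94% of all genes). The lower calls were 2 with limma voom (4.08% of members, 12.1% of all genes) and 0 in the fit of all 39, where 0.843% of all genes were called. They were 1 to 2 when 1 library was left out (2 without HFD fasted replicate 6). For fits that left out 1 library, shares over all genes are not given. The difference between tissues had 8 higher and 1 lower call with limma voom (16% and 2% of members, 6.67% and 4.33% of all genes). The eWAT ratios past the threshold numbered 1 to 3 when 1 library was left out (2 without HFD fed replicate 1 and 3 without HFD fasted replicate 4). The causes were not tested. For fasting in quadriceps averaged over diets and for the difference between tissues, no direction of a called member reversed in any setting run. Directions of members called within 1 juvenile diet were not compared between settings. RLE scaling and DESeq2 moved none of these counts by over 1.5 times. No paired analysis was possible because the labels give no replicate numbers and tie no libraries to mice; whether the tissues share mice is not stated. At these depths, genes of a few CPM are the least precise.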
